A study of Homo sapiens with 18 samples.

Results

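Laminins are large secreted proteins of the basement membrane, each built from an alpha, a beta and a gamma chain joined in a coiled coil. The alpha chain carries the globular domains that integrins, dystroglycan and other receptors of the cell surface bind, and the beta and gamma chains link the trimer to the rest of the sheet. Epithelia, ovarian carcinoma cells among them, sit on and bind such sheets, and the chain that a cell expresses decides which trimers it can assemble. The 8 chains described here, LAMA1, LAMA3, LAMA4, LAMA5, LAMB1, LAMB2, LAMB3 and LAMC1, were taken by gene symbol from a table of 12853 genes. The set was chosen by these symbols around LAMA4, which was selected on its expression values, higher in the resistant line of each pair. The change of LAMA4 within the pairs is therefore given as a description with no test, and the other 7 chains were tested. LAMA2 was also listed and is given beside the 8 chains.

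Gene expression was measured by RNA-seq of rRNA-depleted total RNA in 6 cancer cell lines with 3 replicates each (18 libraries), which form 3 isogenic pairs of a platinum-sensitive and a platinum-resistant line. In the A2780 pair, A2780, labelled as an endometrial or ovarian line, was compared with CP70, its platinum-resistant derivative made by selection in vitro. The PEA lines trace back to 1 case of high-grade serous ovarian cancer (HGSOC) whose ascites were sampled at 2 times, PEA1 ahead of any platinum drug and PEA2 once the tumour had returned and no longer responded. The PEO lines trace back to a different HGSOC case under platinum treatment, with PEO1 taken while the tumour still responded and PEO4 once it did not. All lines grew in RPMI-1640 with glutamine and fetal bovine serum, and no drug is named for these samples. Each condition within a pair is therefore 1 cell line. Nothing says that the replicates of a line were separate cultures, so the tests measure the spread between these libraries, which may be technical.

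The reads on listed genes ranged from 1344098 to 7067336 per library (median 2926659), and 3 reads corresponded to between 0.452 and 2.18 CPM (reads scaled to library size), a limit that covers counting error only. The PEA1 libraries were the shallowest, at 1344098 to 1670866 reads. The chi-square per degree of freedom between replicate libraries of a line ranged from 1.74 to 13.5, and replicate 3 of PEO1, the deepest library, stood apart, at 13.5 and 11.3 from replicates 1 and 2, which were at 1.74 from each other. Without that library the PEO pair still gave 3 chains at the test threshold used below and a LAMA4 change of 3.82 on the log2 scale. Of 8 markers of ovarian or general epithelium, A2780 held more than 3 reads for 1 alone (EPCAM), with PAX8, WT1, MUC16, KRT8, KRT18, KRT19 and CDH1 at or below 3 reads in each library. CP70 held 4 of these markers, PEA1 held 7, and PEA2, PEO1 and PEO4 held 8. The endothelial marker CDH5 was at 25.3 to 36.1 CPM and the leukocyte marker PTPRC at 20.1 to 25.1 CPM in PEA2, while both were at or below 3 reads in the other 5 lines. The other markers of those 2 lists were not analysed here. The summed fibroblast markers DCN, LUM and COL1A2 were at 46.5 to 51.9 CPM in CP70 against 2.68 to 5.04 CPM in A2780. The sum was at 0.288 to 2.67 CPM in PEA2 against 0 CPM in PEA1. It was at 7.96 to 10.0 CPM in PEO4 against 0.358 to 0.653 CPM in PEO1. DCN and LUM were at or below 3 reads in PEA2 and PEO4. What part these markers have in the chain results was not tested.

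LAMA4 encodes the alpha chain of the laminins found in vessel walls, fat, muscle and nerve, and it has a short N-terminal arm. It is on chromosome 6 (GRCh37, minus strand, from 112429134 to 112576141). It had 0 reads in the 3 libraries of A2780 and 14, 6 and 4 reads in those of CP70, or 2.29, 1.42 and 1.05 CPM. In PEA1 it again had 0 reads in each library, and in PEA2 it was at 40.5, 41.4 and 24.2 CPM. A2780 and PEA1 were thus at the floor. In these bulk samples, fewer cells that express a gene and less of its RNA per cell cannot be told apart. In PEO1 LAMA4 was already present at 16.3, 13.6 and 12.4 CPM, and in PEO4 it was at 231, 203 and 206 CPM. Expression was at least 1.61-fold higher in CP70 than in A2780 and at least 17.6-fold higher in PEA2 than in PEA1, counted against 3 reads, and 15.1-fold higher in PEO4 than in PEO1. No library of a resistant line overlapped with those of its sensitive line. Among the resistant lines PEO4 was 6.02-fold above PEA2 and PEA2 was 22.3-fold above CP70. PEO1, a sensitive line, lay above CP70, a resistant one. The order of levels was PEO4, PEA2, PEO1 and CP70, with no overlap between neighbours, and then A2780 and PEA1 at the floor. In PEO4, where LAMA4 was highest, the endothelial marker CDH5 was at no more than 0.406 CPM. The summed fibroblast markers were at 7.96 to 10.0 CPM in PEO4. In PEA2, where LAMA4 was also higher than in the sensitive line, CDH5 was at 25.3 to 36.1 CPM, against 0 CPM in PEA1. Any link of these markers to LAMA4 was not tested.

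**Figure D1:**
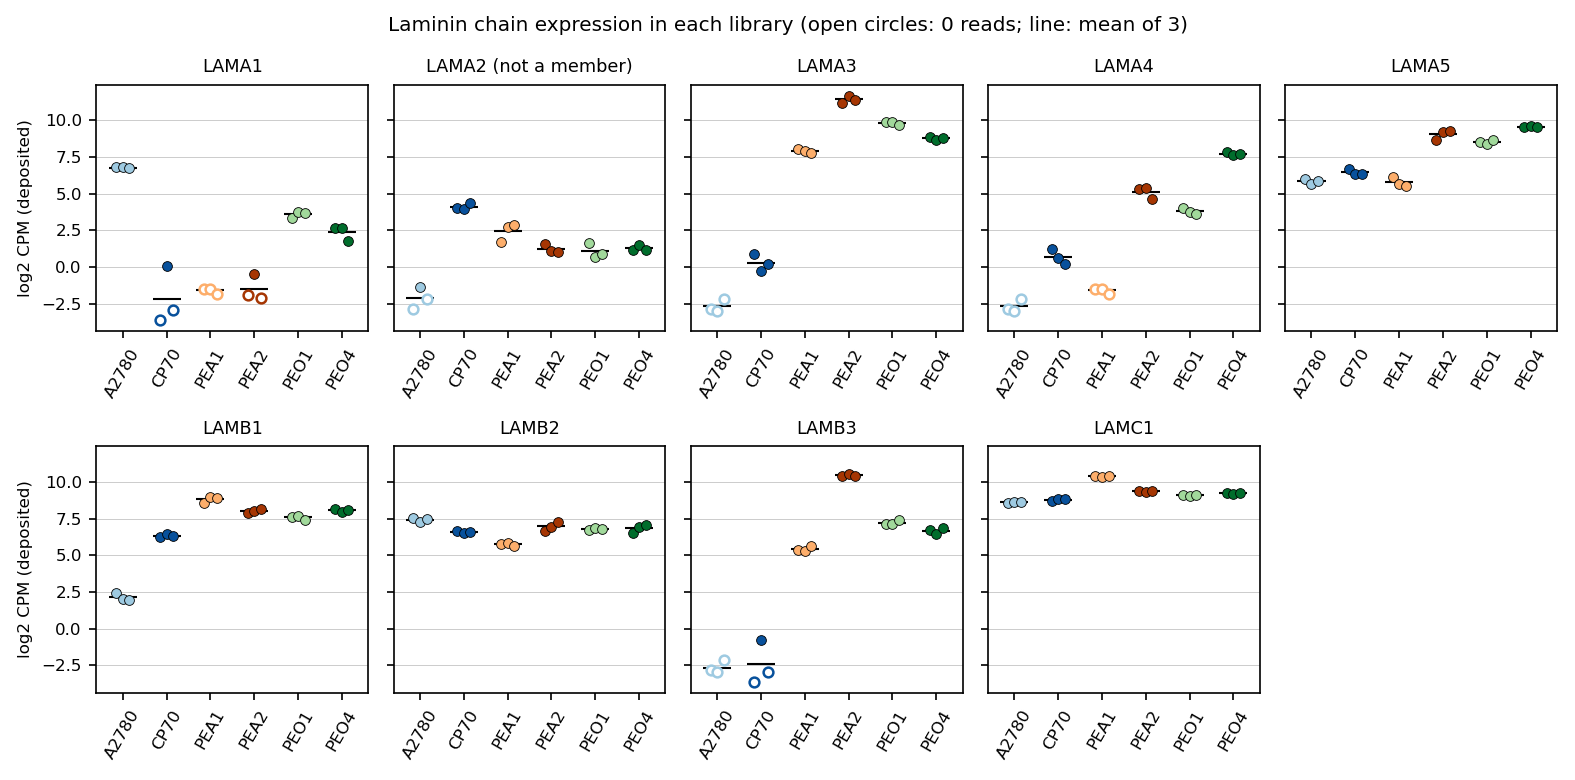
Expression of LAMA2 and the 8 laminin chains in each of the 18 libraries as deposited log2 CPM (vertical axis), by cell line (horizontal axis), with open circles for libraries at 0 reads and a horizontal line for the mean of 3. The LAMA4 libraries of PEO4 sit at 203 to 231 CPM, above those of each other line, and LAMA3 and LAMB3 are near the floor in A2780 and CP70 only.

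LAMA5 is the alpha chain of the most widespread epithelial laminins and lies on chromosome 20 (GRCh37, minus strand, from 60883011 to 60942368). Its 3 libraries read 64.9, 49.5 and 59.4 CPM in A2780 and 103, 82.0 and 79.7 CPM in CP70. PEA1 read 69.7, 49.9 and 45.4 CPM and PEA2 405, 601 and 626 CPM. For the third pair the values were 360, 335 and 407 CPM in PEO1 and 761, 782 and 745 CPM in PEO4. The libraries of the 2 lines did not overlap in any pair, and LAMA5 rose in each. How many of all genes did the same was not counted. The log2FC, the difference in mean log2 CPM of the resistant minus the sensitive line, was 0.60 (SE 0.16, FDR 0.00558) in CP70, 3.30 (SE 0.16, FDR 1.6e-12) in PEA2 and 1.06 (SE 0.16, FDR 2.69e-05) in PEO4. These came from a limma fit of all 18 libraries, with the false discovery rate (FDR) adjusted over all 12853 genes and a threshold of 0.05. The rise in PEA2 was larger than that in the other two pairs, by 2.69 on the log2 scale over the A2780 pair (FDR 6.63e-09) and with a PEO minus PEA difference of -2.24 (FDR 8.95e-08). ADRM1, a proteasome subunit gene that overlaps LAMA5 on the opposite strand, had log2FC of 0.63, 0.68 and 0.47 in the A2780, PEA and PEO pairs. The library kit kept strand, and whether the counting used it is not given in the sources used here.

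The line means of LAMA4 and LAMA5 had a Pearson r of 0.978 over the 6 lines, a description from lines that come in pairs, and LAMA3 and LAMB3 had one of 0.982. These were the 2 highest of 36 pairs of chains, LAMA2 included, which ranged from -0.87 to 0.98, and were chosen after their values were seen. The upstream sequences of LAMA4 and LAMA5 are shown here because of this shared order. They are the 250 bases before a RefSeq start on GRCh38.p14, a later build than that of the expression table, written 5′ to 3′ on the strand of the gene. Capitals mark matches to the GC box GGGCGG, the AP-1 element TGACTCA or the TATA element TATAAA on either strand. The LAMA4 stretch is chr6:112254568-112254817 and the LAMA5 stretch is chr20:62367313-62367562, both on the minus strand.
LAMA4: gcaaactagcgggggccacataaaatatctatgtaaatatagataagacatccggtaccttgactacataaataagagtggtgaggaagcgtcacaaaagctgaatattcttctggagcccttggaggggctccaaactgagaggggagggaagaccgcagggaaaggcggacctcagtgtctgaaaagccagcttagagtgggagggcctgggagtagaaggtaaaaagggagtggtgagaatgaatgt
LAMA5: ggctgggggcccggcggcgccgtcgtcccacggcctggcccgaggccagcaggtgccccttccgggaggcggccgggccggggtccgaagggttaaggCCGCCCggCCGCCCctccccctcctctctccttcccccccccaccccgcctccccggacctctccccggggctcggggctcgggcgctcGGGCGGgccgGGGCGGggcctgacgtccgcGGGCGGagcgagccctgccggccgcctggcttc
In the full windows, which also take the first 50 bases after the start, LAMA4 held 8 CG dinucleotides and no match to any of the 3 motifs. LAMA5 held 41 CG dinucleotides and 5 GC boxes. Over 35116 RefSeq windows of this length the median was 14 CG dinucleotides (quartiles 4 and 28), and 45% held a GC box, 4.95% an AP-1 element and 11.5% a TATA element. The matches are descriptions of letters and not of bound sites.

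LAMA3 encodes the alpha chain of the laminin that anchors epithelial cells at hemidesmosomes, where it joins LAMB3 (chromosome 18, GRCh37, plus strand, from 21269417 to 21536186). In A2780 it had 0 reads in each library and in CP70 it had 11, 3 and 4 reads. CP70 thus stood at least 1.21-fold higher, counted against 3 reads, a bound that was not itself tested. The test was of the fitted log2FC of 2.95 (FDR 1.22e-09), whose size depends on the reads added to each count. With 2 reads added the log2FC was 1.32 (FDR 4.54e-06). The PEA1 libraries were at 267, 238 and 223 CPM and the PEA2 libraries at 2335, 3258 and 2678 CPM, an 11.4-fold rise (log2FC 3.49, SE 0.22, FDR 6.73e-11). The PEO pair moved the other way, from 958, 922 and 835 CPM in PEO1 to 458, 408 and 435 CPM in PEO4 (log2FC -1.06, SE 0.22, FDR 0.000711). The libraries did not overlap in any of the 3 pairs. The change in the PEO pair was lower than that in the PEA pair by a log2 difference of -4.55 (FDR 4.04e-10).

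LAMB3, the beta chain that joins LAMA3 in that trimer, was absent or near absent in the A2780 pair, with 0 reads in each A2780 library and 0, 2 and 0 reads in CP70, so no fold is given (chromosome 1, GRCh37, minus strand, from 209788215 to 209825770). The PEA1 libraries held 41.4, 38.5 and 50.05 CPM and the PEA2 libraries 1368, 1453 and 1369 CPM. This was a 32.2-fold rise, the largest measured among the 7 tested chains in that pair (log2FC 5.01, SE 0.44, FDR 7.05e-09). LAMB3 was at 139, 141 and 165 CPM in PEO1 and at 103, 87.1 and 116 CPM in PEO4. The libraries of the PEO pair did not overlap, but the difference did not pass the test (log2FC -0.55, 95% interval -1.47 to 0.38, FDR 0.35). That interval rests on 1 estimate of spread shared over the 6 lines, and not on the PEO libraries alone. The SD of the LAMB3 log2 values was 0.14 in PEO1 and 0.21 in PEO4, against 1.49 in CP70, which was near the floor. When the 6 libraries of the PEO pair were fitted alone, the same log2FC had an FDR of 0.000791.

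The upstream stretches of LAMA3 and LAMB3 are shown because both genes had the largest rises of the tested chains in PEA2. Each also holds an AP-1 element. That match was part of the choice, so it is not a result about these genes. LAMA3 is chr18:23872770-23873019 on the plus strand, at the only RefSeq start listed for it. Whether this start lies at the beginning of the GRCh37 span given above or inside it was not examined. Whether the gene has other starts was not examined either. LAMB3 is the most downstream of 3 listed starts, chr1:209651375-209651624 on the minus strand. The marking is the same as above.
LAMA3: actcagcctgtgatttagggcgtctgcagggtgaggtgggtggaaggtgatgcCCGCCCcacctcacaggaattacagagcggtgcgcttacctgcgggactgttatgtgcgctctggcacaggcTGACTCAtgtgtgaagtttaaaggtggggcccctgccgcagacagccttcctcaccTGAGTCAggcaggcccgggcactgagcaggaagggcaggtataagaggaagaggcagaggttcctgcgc
LAMB3: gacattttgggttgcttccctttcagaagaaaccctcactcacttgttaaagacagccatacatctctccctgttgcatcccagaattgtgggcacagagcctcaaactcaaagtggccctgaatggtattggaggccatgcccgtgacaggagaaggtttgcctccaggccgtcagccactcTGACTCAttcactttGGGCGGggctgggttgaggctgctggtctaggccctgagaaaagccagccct
The LAMA3 window held 2 AP-1 elements, which begin 125 and 69 bases before the start, and 1 GC box. The LAMB3 window held 1 AP-1 element, which begins 67 bases before the start, and 1 GC box. The windows at the other 2 LAMB3 starts held a GC box and no AP-1 element. None of the windows of LAMA4, LAMA5, LAMB1, LAMB2 and LAMC1 held an AP-1 element. RefSeq entries were matched for 7 of the 8 chains.

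LAMA1 is the alpha chain of the laminin of the early embryo and of a few adult epithelia (chromosome 18, GRCh37, minus strand, from 6941741 to 7117796). It was at 111, 114 and 106 CPM in A2780, from 396, 440 and 237 reads, and had 0, 4 and 0 reads in CP70. This was the largest fall of any tested chain, with a log2FC of -8.93 (SE 0.65, FDR 6.9e-10) whose size rests on 4 reads in CP70. In the PEA pair LAMA1 was at the floor in both lines, with 2 reads in a single PEA2 library, so no fold is given. In PEO1 it was at 10.1, 13.2 and 13.1 CPM and in PEO4 at 6.23, 6.34 and 3.25 CPM, without overlap. The change in the PEO pair did not pass the test (log2FC -1.22, 95% interval -2.59 to 0.15, FDR 0.148). In a fit of that pair alone it had an FDR of 0.00286, and without replicate 2 of CP70, the library with the 4 reads, an FDR of 0.0274.

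LAMA2, the alpha chain of muscle and nerve laminins, was listed outside the 8 chains and took an opposite course in the A2780 pair. It had 0, 1 and 0 reads in A2780 and was at 15.9, 15.2 and 21.0 CPM in CP70, at least 17.6-fold higher, counted against 3 reads. The test was of the fitted log2FC of 6.23 (FDR 1.63e-10) and not of this bound. The fibroblast markers given above were also higher in CP70. In PEA2 LAMA2 was lower than in PEA1 (log2FC -1.20, SE 0.42, FDR 0.0174), at 2.67, 2.01 and 1.83 CPM against 2.91, 6.41 and 6.90 CPM.

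**Figure D2:**
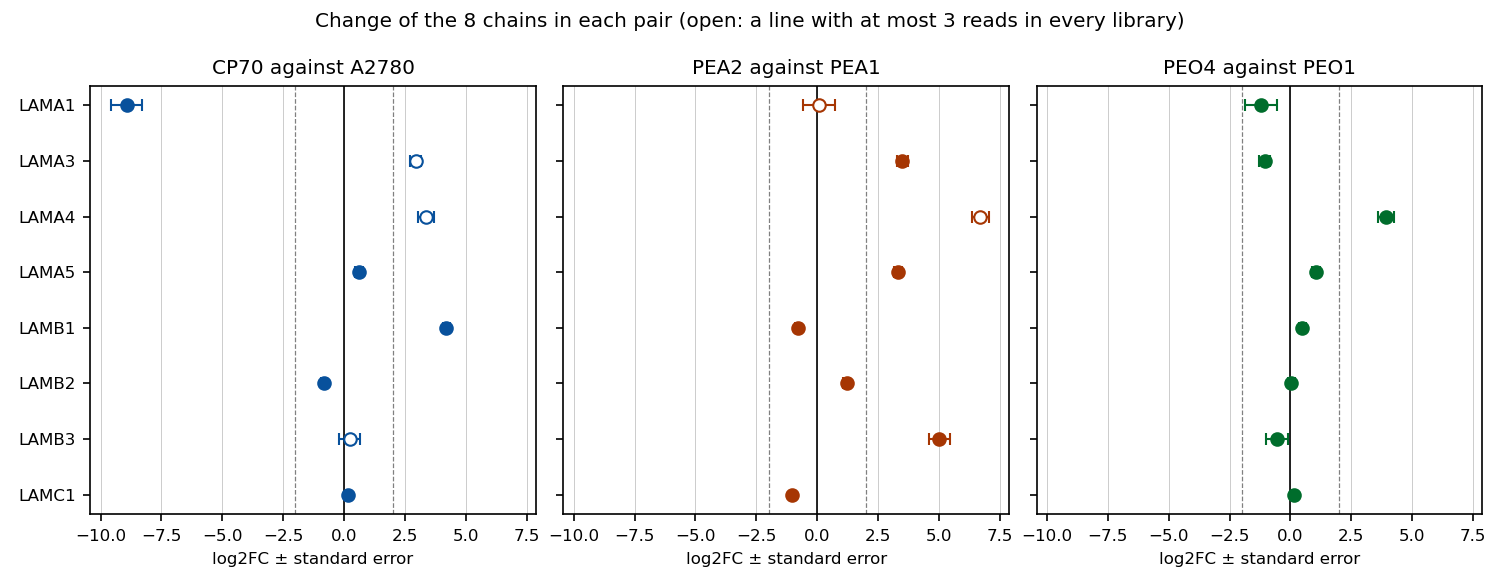
Log2FC of the resistant against the sensitive line (horizontal axis, with the standard error as bars) for the 8 chains (vertical axis) in each pair, with dashed lines at a log2FC of 2 in either direction and open points where a line had at most 3 reads in every library. LAMA4 and LAMA5 are the 2 chains to the right of 0 in all 3 panels, and LAMA1 in CP70 is the furthest to the left at -8.93.

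LAMB1, a beta chain of most laminins outside the hemidesmosome, is on chromosome 7 (GRCh37, minus strand, from 107564244 to 107643658). It was at 5.32, 3.87 and 3.58 CPM in A2780 and at 76.2, 86.3 and 77.6 CPM in CP70, an 18.8-fold rise (log2FC 4.20, SE 0.13, FDR 1.65e-15). LAMB1 fell in the PEA pair, from 378, 499 and 485 CPM in PEA1 to 235, 262 and 283 CPM in PEA2 (log2FC -0.80, FDR 3.47e-05). LAMB1 rose in the PEO pair from 198, 204 and 170 CPM in PEO1 to 288, 245 and 268 CPM in PEO4 (log2FC 0.49, FDR 0.00625). No libraries overlapped within a pair, and each of the 3 differences between pairs passed the test, with a PEA minus A2780 difference of -5.00 (FDR 4.63e-14). DLD, a mitochondrial dehydrogenase gene that overlaps LAMB1 on the opposite strand, had log2FC of -0.07, -0.60 and -0.13 in the 3 pairs.

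LAMB2, the beta chain of the neuromuscular junction and the kidney filter, is on chromosome 3 (GRCh37, minus strand, from 49158547 to 49170551). It fell in CP70, from 189, 151 and 178 CPM in A2780 to 101, 92.9 and 97.8 CPM (log2FC -0.82, SE 0.14, FDR 7.66e-05). It rose in PEA2, from 54.5, 57.7 and 50.05 CPM in PEA1 to 102, 124 and 155 CPM (log2FC 1.21, SE 0.14, FDR 3.45e-07). LAMB1 and LAMB2 thus changed in opposite directions in both of these pairs. The LAMB2 libraries of the PEO pair overlapped, at 106, 116 and 111 CPM in PEO1 and 91.0, 122 and 131 CPM in PEO4 (log2FC 0.03, 95% interval -0.26 to 0.33, FDR 0.875).

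LAMC1, the gamma chain shared by most laminins, is on chromosome 1 (GRCh37, plus strand, from 182992555 to 183114727) and was expressed in each of the 6 lines. It fell in PEA2, from 1331, 1310 and 1350 CPM in PEA1 to 670, 633 and 666 CPM (log2FC -1.02, SE 0.07, FDR 2.2e-10). It was at 380, 397 and 394 CPM in A2780 and 415, 455 and 451 CPM in CP70, a difference that did not pass the test (log2FC 0.17, 95% interval 0.02 to 0.32, FDR 0.06). The test was not passed between PEO1 and PEO4 either, with LAMC1 at 548, 527 and 544 CPM and at 609, 575 and 602 CPM (log2FC 0.14, 95% interval -0.01 to 0.29, FDR 0.12). Sensitive and resistant libraries did not overlap in either of those pairs, and the intervals allow changes no larger than 0.32 on the log2 scale.

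Counted over the 7 tested chains, 5 passed the FDR of 0.05 in the A2780 pair, where 39.9% of all genes did, with 3 higher (22.2% of all genes) and 2 lower (17.7%). In the PEA pair 6 passed against 61.9% of all genes, with 4 higher (32.5%) and 2 lower (29.4%). In the PEO pair 3 passed against 41.5% of all genes, with 2 higher (19.6%) and 1 lower (21.9%). A |log2FC| above 2 with that FDR was reached by 3 chains in the A2780 pair (9.06% of all genes), by 3 in the PEA pair (14.1%) and by 0 in the PEO pair (6.22%). With 2 reads added, the LAMA3 change in the A2780 pair was 1.32 on the log2 scale (FDR 4.54e-06) and 2 chains were past 2 there (6.91% of all genes). For the PEO pair, the fit of the pair alone gave 5 chains at the FDR (50.4% of all genes) and voom weights also gave 5 (48.5%). The median log2FC of the 7 chains was 0.22, 1.21 and 0.03 in the A2780, PEA and PEO pairs, against -0.02, 0.01 and -0.02 over all genes. With chains at the floor set to their bound, the median in the A2780 pair was 0.17 and the other two were as above. LAMA5 was the tested chain that rose in each pair, and the share of all genes that did so was not counted.

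Between the PEA and A2780 pairs 6 of 7 chains differed (57.5% of all genes), between the PEO and A2780 pairs 4 did (47.5%), and between the PEO and PEA pairs 6 did (58.7%). These comparisons share the same libraries of each pair. LAMB3 rose more in the PEA pair than in the A2780 pair, where it was at the floor, with a log2 difference of 4.79 (FDR 2.01e-06), and the PEO minus PEA difference was -5.55 (FDR 2.9e-07). LAMC1 differed by -1.19 between the PEA and A2780 pairs (FDR 5.05e-09). LAMB2 differed in each of the 3 comparisons of pairs, by 2.03 for PEA minus A2780 (FDR 4.34e-08).

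Lines of the same sensitivity also differed in their chains. Of the 7 tested chains, 6 differed between PEA1 and A2780 (71.9% of all genes), 7 between PEO1 and A2780 (72%) and 7 between PEO1 and PEA1 (68.1%). LAMA3 was at least 247-fold higher in PEA1 and at least 919-fold higher in PEO1 than in A2780. LAMA5 was the exception between PEA1 and A2780, with overlapping libraries (log2FC -0.09, FDR 0.646). Among the resistant lines, 6 chains differed between PEA2 and CP70 (72.3%), 6 between PEO4 and CP70 (70.1%) and 4 between PEO4 and PEA2 (68.1%). PEO4 and PEA2 had overlapping libraries for LAMB1 (log2FC 0.04, FDR 0.797) and LAMB2 (log2FC -0.14, FDR 0.376). For LAMA3 PEO4 lay below PEA2 (log2FC -2.66, FDR 2.83e-09), and for LAMA5 it lay above (log2FC 0.51, FDR 0.0091).

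To set chains against each other, CPM was divided by the length of the exons of each gene in kb, and each chain was given as a share of the summed CPM per kb of its class. In A2780 the alpha chains were LAMA1 at 63.2% ± 3.62 (SD, n = 3) and LAMA5 at 36.8% ± 3.67. In CP70 LAMA5 made up 87.3% ± 1.73, LAMA2 9.46% ± 2.47 and LAMA1 0.305% ± 0.528. With the longest transcript in place of the union of exons, the LAMA2 share in CP70 was 17.9% ± 4.25. The largest alpha share thus passed from LAMA1 to LAMA5, and the libraries of the 2 lines did not overlap in either share. The summed alpha chains were at 11.0 ± 0.469 CPM per kb in A2780 and 7.07 ± 0.919 in CP70.

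In the PEA pair LAMA3 held 80.6% ± 1.68 of the alpha chains in PEA1 and 82.2% ± 1.86 in PEA2, with overlapping libraries, while the summed alpha chains went from 20.8 ± 2.36 to 231 ± 38.7 CPM per kb. LAMA4 was 1.30% ± 0.438 of the alpha chains in PEA2. LAMA3 held 69.2% ± 3.25 in PEO1 and 29.5% ± 1.198 in PEO4. LAMA5 held 28.5% ± 3.30 in PEO1 and 52.6% ± 1.84 in PEO4. LAMA4 held 1.30% ± 0.145 in PEO1 and 17.5% ± 0.809 in PEO4, the largest share it took in any line. The summed alpha chains in the PEO pair were at 90.2 ± 2.87 and 102 ± 2.68 CPM per kb.

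**Figure D3:**
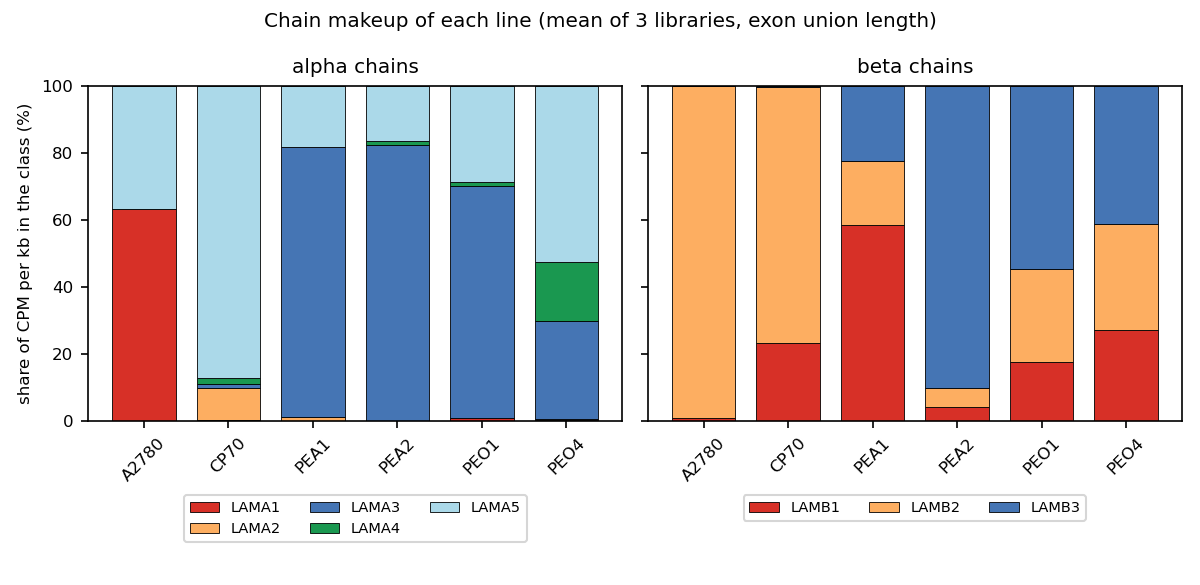
Share of each chain in the summed CPM per kb of exon length of the alpha and beta class (vertical axis, percent, mean of 3 libraries) in each line (horizontal axis). LAMA1 gives way to LAMA5 between A2780 and CP70, LAMB3 reaches 90.2% of the beta chains in PEA2, and the LAMA4 share is 17.5% in PEO4.

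Among the beta chains LAMB2 held 99.1% ± 0.149 in A2780 and 76.5% ± 2.20 in CP70, where LAMB1 held 23.3% ± 1.89. LAMB1 was the largest in PEA1 at 58.5% ± 3.51, and LAMB3 in PEA2 at 90.2% ± 1.47. LAMB3 held 54.7% ± 3.35 in PEO1 and 41.3% ± 3.18 in PEO4. The LAMB1 shares depend on the length used, since the union of its exons spans 18592 bases and its longest transcript 6737. With the longest transcript LAMB1 became the largest beta chain of PEO4, at 47.5% against 28.3% for LAMB3.

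The basement membrane holds a collagen IV network and linker proteins beside laminin. Of 14 listed partners, 5 were higher and 7 lower in CP70, 8 higher and 4 lower in PEA2, and 2 higher and 6 lower in PEO4 at the FDR of 0.05, which 39.9%, 61.9% and 41.5% of all genes passed in these pairs. Their median log2FC was -0.53, 0.71 and -0.24 in the A2780, PEA and PEO pairs (-0.33, 0.71 and -0.19 with genes at the floor set to their bound). NID2, a nidogen that links laminin to collagen IV, fell in CP70 and was at 70.7 to 80.9 CPM in A2780 and 1.05 to 4.59 CPM in CP70 (log2FC -4.90, FDR 9.8e-11). It rose in the PEA pair and was at 9.97 to 16.7 CPM in PEA1 and 1204 to 1396 CPM in PEA2 (log2FC 6.61, FDR 1.04e-12). NID2 fell in PEO4 (log2FC -2.75, FDR 7.82e-07). Its relative NID1 fell in PEA2 (log2FC -3.92, FDR 5.18e-06), with 291 to 349 CPM in PEA1 and 18.4 to 26.1 CPM in PEA2. NID1 also fell in CP70 (log2FC -3.36, FDR 6.01e-05). In PEO4 NID1 was lower too (log2FC -1.47, FDR 0.0421), with overlapping libraries at 4 to 14 reads in PEO1 and 0 to 8 in PEO4. The collagen IV chains COL4A1 and COL4A2, which are transcribed from a shared promoter region in opposite directions, fell the most in the PEO pair. COL4A1 was at 42.6 to 52.9 CPM in PEO1 and had 1 to 4 reads per library in PEO4 (log2FC -5.64, FDR 1.53e-11), and COL4A2 was at 79.0 to 92.5 CPM and had 2 to 5 reads (log2FC -6.17, FDR 2.49e-12). Both were higher in CP70 than in A2780, where they were at the floor. COL4A1 went from 0 reads to 17.7 to 20.4 CPM (log2FC 6.94, FDR 1.23e-13), and COL4A2 reached 2.37 to 3.08 CPM (log2FC 1.70, FDR 4.95e-05). Neither passed the test in the PEA pair (FDR 0.18 and 0.507).

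All 14 laminin receptors of the list were found in the table. In CP70 8 were higher and 2 lower, in PEA2 6 higher and 5 lower, and in PEO4 7 higher and 3 lower, where 22.2% and 17.7%, 32.5% and 29.4%, and 19.6% and 21.9% of all genes were higher and lower in these pairs. Their median log2FC was 0.36, 0.23 and 0.60 (0.13, 0.23 and 0.60 with genes at the floor set to their bound). BCAM, the Lutheran glycoprotein, binds the LAMA5 chain. It was at 4.20 to 5.36 CPM in A2780 and 22.3 to 28.0 CPM in CP70 (log2FC 2.32, FDR 5.14e-11), and at 239 to 261 CPM in PEO1 and 872 to 947 CPM in PEO4 (log2FC 1.90, FDR 2.77e-09). BCAM was higher in PEA2 too, at 2.85 to 4.03 CPM in PEA1 and 32.5 to 40.6 CPM in PEA2 (log2FC 3.23, FDR 3.43e-13). ITGA6, an alpha subunit of the main laminin-binding integrins, rose in CP70 (log2FC 1.52, FDR 4.18e-09) and in PEA2 (log2FC 0.97, FDR 1.47e-06). In PEO4 ITGA6 was lower than in PEO1 (log2FC -0.55, FDR 0.00138).

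The heparan sulfate proteoglycan SDC2 fell in CP70, and was at 330 to 371 CPM in A2780 and 2.84 to 3.93 CPM in CP70 (log2FC -6.74, FDR 3.7e-18). ITGA2, an alpha subunit of a receptor for collagen and laminin, rose in PEA2, and was at 4.27 to 6.33 CPM in PEA1 and 422 to 534 CPM in PEA2 (log2FC 6.52, FDR 9.54e-15). MCAM, a surface glycoprotein that binds the LAMA4 chain, fell in PEA2, and was at 59.8 to 64.6 CPM in PEA1 and 2.30 to 2.74 CPM in PEA2 (log2FC -4.48, FDR 1.99e-10), while LAMA4 went from 0 reads to at least 24.2 CPM. In PEO4, where LAMA4 was highest, MCAM was at 68.7 to 78.7 CPM against 80.0 to 105 CPM in PEO1 (log2FC -0.33, FDR 0.428). ITGA1, the alpha subunit of another receptor for collagen and laminin, rose in PEO4, with 2.15 to 6.20 CPM in PEO1 and 17.99 to 18.3 CPM in PEO4 (log2FC 2.49, FDR 0.000116).

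Dystroglycan binds laminin through a sugar chain that a set of enzymes builds on it. Of 11 listed enzymes, 2 were higher and 3 lower in CP70, 3 higher and 6 lower in PEA2, and 1 higher and 2 lower in PEO4, beside 39.9%, 61.9% and 41.5% of all genes past the FDR in either direction. Their median log2FC was -0.17, -0.50 and -0.26 in the A2780, PEA and PEO pairs, and these medians were the same with genes at the floor set to their bound. None of the enzymes was among the 2 highest or 2 lowest changes of a pair.

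**Figure D4:**
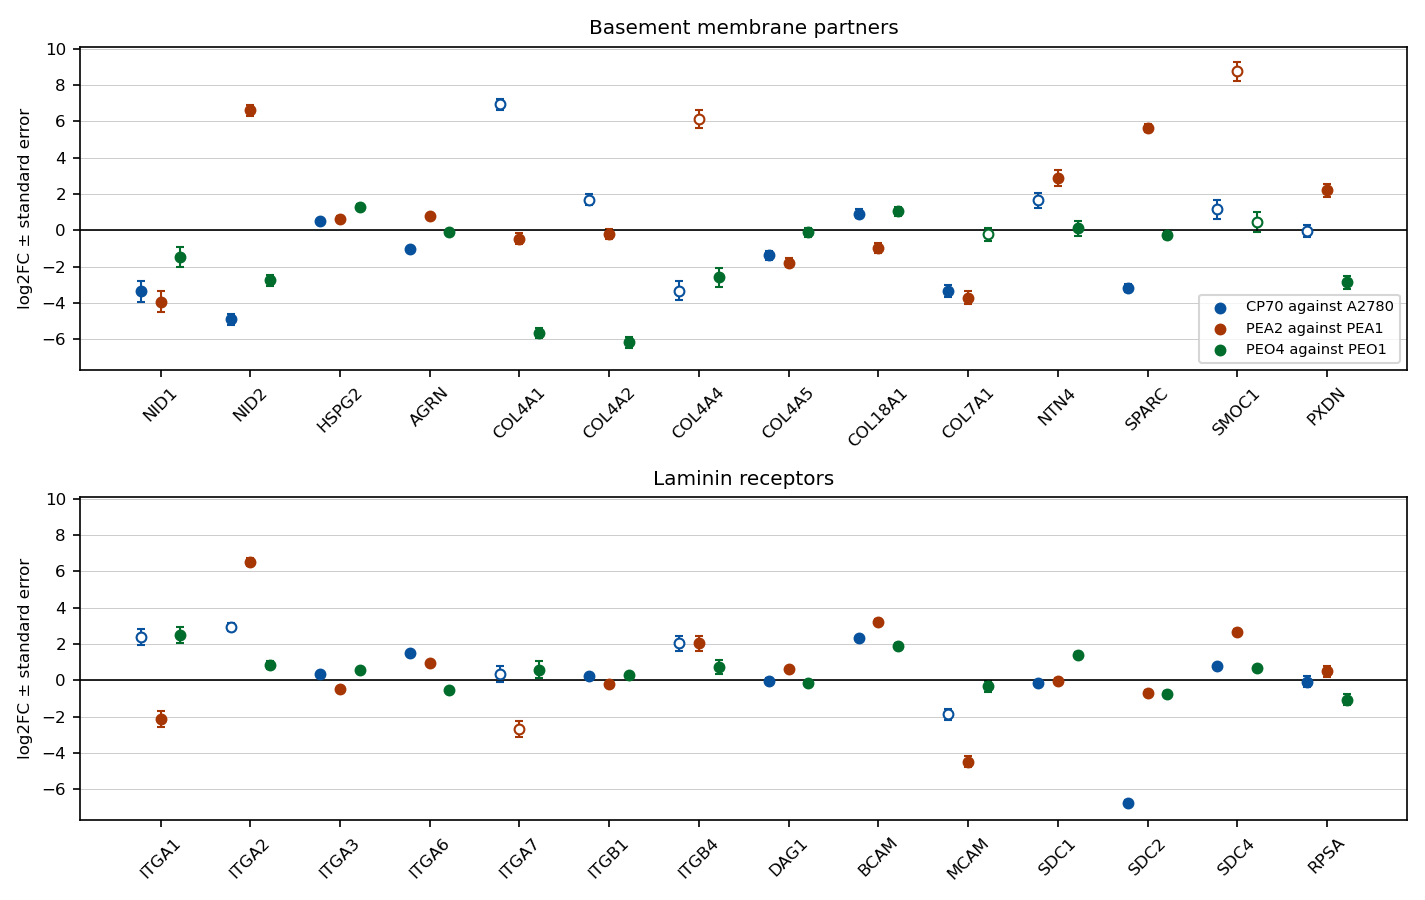
Log2FC of the resistant against the sensitive line with its standard error (vertical axis) for 14 basement membrane partners and 14 laminin receptors (horizontal axis) in the 3 pairs, with open points where a line had at most 3 reads in every library. NID2 lies at -4.90 in CP70 and 6.61 in PEA2, and BCAM lies above 0 in each pair.

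Genes were ranked by the likeness of their log2 values to those of LAMA4 across the 18 libraries, with the 8 chains left out. The top 5 were DIAPH1 (Pearson r 0.971), FAM83H-AS1 (0.970), DLG3 (0.961), CMPK2 (0.960) and DTX4 (0.956). The ranking drew on 12450 genes with more than 3 reads in at least 3 lines, counted before the chains were left out. The libraries share lines and floors, so these values are a description. DIAPH1, an actin-nucleating formin, moved over a narrow range, from a mean log2 CPM of 8.19 in A2780 to 9.32 in PEO4. CMPK2, a mitochondrial nucleotide kinase, was at 5.74 in PEO4 and 3.02 in PEA2.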

How the data were processed

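RNA-seq was analysed for 18 libraries. Per the labels, the submitters' processing notes name Bowtie2, featureCounts, limma and hg19. The authors assigned aligned reads to genes, normalized them with limma and deposited their expression on a log2 CPM scale for 12853 genes. The values show that every count had 0.5 reads added before it was divided by a library size of its own. Whole reads were recovered from 100% of values (tolerance 0.01) and gave CPM, the floor of 3 reads and the depth. All sample columns were used (0 left out).

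The deposited log2 values were fitted with limma 3.58.1 in R 4.3.3 (linear model with a mean per line, moderated statistics, variance trend), with Benjamini-Hochberg adjustment over 12853 genes, and summaries used pandas 2.3.3 and numpy 2.4.6. log2FC is resistant minus sensitive, on the scale with 0.5 reads added, so the fitted change of a gene at the floor depends on that amount. The fit shares 1 estimate of spread per gene over the 6 lines. Genes were called at an FDR below 0.05, and at |log2FC| above 2 with that FDR. Bounds were taken against 3 reads as the mean over the libraries of a line. Lengths and spans came from a GRCh37 annotation that matched 12642 gene identifiers and not 211. The calculations were tested on simulated data.

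The members and gene lists were chosen with earlier results of these data known. Named genes were the 8 chains and the 5 genes most like LAMA4 outside those chains. The partner, receptor and glycosylation lists gave the 2 highest and 2 lowest changes of each pair with more than 3 reads in both lines. LAMA2, ADRM1, DLD and the cell type markers were also named. MCAM, NID1 and NID2 in the PEO pair, and COL4A1 and COL4A2 in the A2780 and PEA pairs, were chosen after their values were seen. So were NID1 in the A2780 pair, BCAM in the PEA pair, and ITGA6 in the PEA and PEO pairs. The other alternatives tried were quantile normalization, the replicate block, each pair fitted by itself, only genes with a mean log2 above 0, no variance trend, |log2FC| above 1, voom weights, 2 reads added, the longest transcript, and leaving out each library in turn.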

Additional observations from a re-analysis of the deposited data

Results flagged for a closer look

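Each of the following is a change within a pair that differed from that of another pair by a test of the difference itself, in the limma fit with an FDR over all 12853 genes. The value is the difference of 2 log2FC, and the pairs were not independent of each other, since each pair enters 2 comparisons. LAMA1 fell in the A2780 pair and was at the floor in the PEA pair. It was at a mean of 12.2 CPM in PEO1 against 5.27 CPM in PEO4, a difference that did not pass the test (log2FC -1.22, FDR 0.148). The differences were 9.01 for PEA minus A2780 (FDR 8.45e-08) and 7.71 for PEO minus A2780 (FDR 1e-06). The size of both depends on CP70, which was near the floor. Without its library with 4 reads the log2FC in the A2780 pair was -10.05, against -8.93. LAMA3 gave -4.01 for PEO minus A2780 (FDR 2.93e-09), which rests on 0 reads in A2780, and -4.55 for PEO minus PEA (FDR 4.04e-10). LAMA5 gave 2.69 for PEA minus A2780 (FDR 6.63e-09) and -2.24 for PEO minus PEA (FDR 8.95e-08).

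The beta and gamma chains were also marked. LAMB1 gave -5.00 for PEA minus A2780 (FDR 4.63e-14), -3.71 for PEO minus A2780 (FDR 4.69e-12) and 1.28 for PEO minus PEA (FDR 9.22e-06). LAMB2 gave 2.03 for PEA minus A2780 (FDR 4.34e-08), 0.86 for PEO minus A2780 (FDR 0.00138) and -1.18 for PEO minus PEA (FDR 4.47e-05). LAMB3 gave 4.79 for PEA minus A2780 (FDR 2.01e-06), with the A2780 pair at the floor, and -5.55 for PEO minus PEA (FDR 2.9e-07). LAMC1 gave -1.19 for PEA minus A2780 (FDR 5.05e-09) and 1.16 for PEO minus PEA (FDR 7.94e-09). The share of all genes that differed was 57.5% for PEA minus A2780, 47.5% for PEO minus A2780 and 58.7% for PEO minus PEA. No test for an outlying library was run on the groups of 3. By the chi-square between replicates, replicate 3 of PEO1 stood apart, at 13.5 and 11.3 per degree of freedom from the other replicates.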

How the results depend on the processing

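With |log2FC| above 1, 5 chains passed between PEA1 and PEA2 and 2 between PEO1 and PEO4, against 3 and 0, where 33.6% and 18.8% of all genes passed. With 2 reads added, LAMA3 in the A2780 pair was at 1.32 (FDR 4.54e-06), and 2 chains were past a |log2FC| of 2 there, against 3. Fitted alone, the PEO pair gave 5 chains at the FDR of 0.05, and voom weights also gave 5, against 3, with 50.4% and 48.5% of all genes against 41.5%. LAMA1 then passed in the PEO pair with a log2FC of -1.22 (FDR 0.00286 alone, 0.00589 with voom weights), as it did after quantile normalization (FDR 0.0273) and with 2 reads added (log2FC -1.12, FDR 0.0186). LAMB3 passed in that pair with voom weights (FDR 0.000458) and alone (FDR 0.000791). LAMC1 in the A2780 pair passed after quantile normalization (FDR 0.00763) and with voom weights (FDR 0.0373). With 2 reads added, the fitted LAMA4 change was 1.64 for CP70 and 4.72 for PEA2. Signs turned, in differences that never passed the test, for LAMB3 in the A2780 pair (-0.22 with 2 reads added, -0.62 without CP70 replicate 2, and -0.62 to 0.81 over all libraries left out in turn), for LAMA1 in the PEA pair (-0.36 with 2 reads added, -0.03 without PEA1 replicate 3, -0.44 without PEA2 replicate 2, range -0.44 to 0.39) and for LAMB2 in the PEO pair (-0.02 without PEO4 replicate 2, -0.070 without PEO4 replicate 3, range -0.070 to 0.19). Leaving out each library in turn gave 5 to 6, 6 to 6 and 3 to 4 chains at the FDR in the A2780, PEA and PEO pairs, where the sixth in the A2780 pair was LAMC1 (FDR 0.0427 without CP70 replicate 1, 0.0485 without PEA2 replicate 2).

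With the longest transcript the shares were 67.7% for LAMA1 in A2780, 78.4% for LAMA5 and 17.9% for LAMA2 in CP70, 48.5% for LAMA5 in PEO4, and for LAMB1 2.03%, 40.9%, 77.3%, 10.0%, 34.4% and 47.5% in A2780, CP70, PEA1, PEA2, PEO1 and PEO4.

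To look for pairing, each library was taken as its deviation from the mean of its line. Between same-numbered replicates of the sensitive and the resistant line of a pair, these deviations correlated at -0.04 to 0.05. No pairing by replicate number was seen. With the replicate block, 5, 6 and 3 chains passed in the A2780, PEA and PEO pairs, as without it, and the block changed no call of a chain. The other 580 values of single chains and 404 counts and shares kept their direction and their side of the FDR threshold, stayed within 1.5 times the main count, or moved by less than the spread. Depth limits the chains near the floor most, since 3 reads correspond to up to 2.18 CPM.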
